A study of Mus musculus with 24 samples.

Results

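DN4 thymocytes were compared with DN3b thymocytes after both had been cultured with interleukin 7 (IL7). The comparison takes the arrays titled DN4 with IL7 and DN3b with IL7, 4 of each and 8 of the 24 arrays of the series, matched by the number of the sort. DN4 cells were gated as negative for lineage markers, cKit and CD25, high in CD71 and large by forward scatter, and DN3b cells by the same gate except that they carried CD25. All cells came from thymuses of C57BL/6J mice with an intact Il7r gene (Il7r+/+), the labels giving no age. After each of 4 independent sorts the cells rested for 1 h and were then cultured for 3 h with IL7 at 10 ng/ml. A 3 h culture without IL7 was set up from the same sorts, and another subset, DN3a (CD25-positive, CD71-low and small), was treated in the same way. Total RNA was hybridised to Illumina beadchips, arrays of bead-bound probes that each target 1 transcript.

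Double-negative (DN) thymocytes are immature T cells that carry neither CD4 nor CD8. At beta-selection, in the DN3 stage, a cell that has made a T cell receptor beta chain pairs it with the pre-T alpha chain to form the pre-T cell receptor (pre-TCR). Signals from the pre-TCR and from Notch then drive growth and division, loss of CD25 and progress through DN4 towards the CD4 CD8 double-positive (DP) stage. IL7 binds a receptor of the IL7R alpha chain and the common gamma chain, and the attached kinases JAK1 and JAK3 activate STAT5, which induces survival genes such as Bcl2 and feedback inhibitors such as Cish and Socs2.

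The 8 arrays had median intensities of 100.1 to 117.9, and arrays of 1 group correlated at 0.9761 to 0.9907 over probes. 0 pairs held identical values. Technical replicates are mentioned in the authors' text but no array is marked as one, so n counts sorts as separate samples. The detection filter left 8820 named genes. The gate was visible in RNA: Il2ra, which encodes CD25, was 10.1-fold lower in DN4 cells, at log2 signals of 6.00, 5.77, 5.56 and 6.13 in sorts 1 to 4, against 9.15, 9.04, 9.11 and 9.49 in DN3b cells. Tfrc, which encodes CD71, was lower by 0.76 although the gate was the same for both subsets, with log2 signals of 12.37 to 12.88 in DN4 cells and 13.18 to 13.58 in DN3b cells. As gate genes these are no findings.

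The first question was what differs between DN4 and DN3b cells when IL7 is present. Cd8b1, one of the chains of the CD8 co-receptor, had the largest gain among the genes that passed, after the myeloid transcripts S100a8 and Lyz1, which are treated last. The surface receptor genes Slamf1 and Cd28, the recombinase genes Rag1 and Rag2 and the repressor gene Bcl6 were higher in DN4 cells. The Notch pathway genes Hes1, Notch3 and Nrarp, the cell cycle genes Cdkn1a and Ccnd2, and the IL7 response genes Socs2, Cish and Bcl2 were lower. In all, 531 of 8820 genes passed the threshold (6.02%; limma, Benjamini-Hochberg adjusted p under 0.05). Of these, 214 were higher in DN4 cells (2.43%) and 317 lower (3.59%), and all 531 had the same direction in 4 of 4 sorts. Over all genes 4369 differences were positive and 4451 negative. The list counts below are to be read beside these shares. A difference of at least 2-fold was reached by 26 higher genes (0.295%) and 66 lower genes (0.748%). At an unadjusted p under 0.05, 1657 genes passed (18.8%). The 4 DN4 arrays and the 4 DN3b arrays did not overlap for 781 genes (8.85%). In RNA from bulk cells, fewer cells that carry a transcript and less transcript per cell cannot be told apart. Without sort 2, 3 or 4 the calls dropped to 211, 306 and 237, and without sort 1 to 390.

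Genes of the DN to DP step were the list with the most gains. Of 15 measured members, 8 were higher and 1 was lower, with a median log2 difference of 0.40, against -0.00 over all genes tested. Cd8b1 had log2 signals of 13.40, 13.69, 13.62 and 13.46 in DN4 cells of sorts 1 to 4, against 11.44, 11.73, 11.36 and 11.10 in DN3b cells. Every DN4 array lay far above every DN3b array, a 4.40-fold difference (log2 difference 2.14 ± 0.14 SE, n = 4 sorts, limma adjusted p = 1.9e-05). Slamf1, a signalling receptor of the SLAM family that thymocytes use in contacts with each other, stood at 7.62, 7.74, 7.70 and 7.44 in DN4 cells and at 6.65, 6.34, 6.54 and 6.52 in DN3b cells. Its groups were apart by about 1 log2 unit in each sort (1.11 ± 0.10 SE, limma adjusted p = 0.00015). Bcl6, a transcriptional repressor that pre-TCR signals are known to raise, was higher by 1.24 ± 0.12 SE (limma adjusted p = 0.00022), with 8.09 to 9.09 in DN4 cells and 6.84 to 7.67 in DN3b cells. Smaller gains were seen for the tetraspanin gene Cd81 (0.74), the co-stimulatory receptor genes Cd28 (0.58) and Cd27 (0.50), the chromatin organiser gene Satb1 (0.40) and the calmodulin regulator gene Arpp21 (0.39). For Cd28 the groups overlapped, at 11.46 to 12.02 in DN4 cells and 10.73 to 11.52 in DN3b cells, while the difference within each of the 4 sorts was positive. The call of Cd28 was lost without sort 2, 3 or 4, and that of Cd81 without sort 4. Other probes of Cd28, each detected on 24 of 24 arrays, gave 0.74 and 0.78 (limma adjusted p = 0.0045 and 0.0022). The calls of Cd27, Satb1 and Arpp21 were not checked over single sorts. Cd53, another tetraspanin gene, was the 1 member lower in DN4 cells (-0.62), a call lost without sort 2. Cd4, Cd8a and Tcf7 had no named probe above the detection filter.

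**Figure D1:**
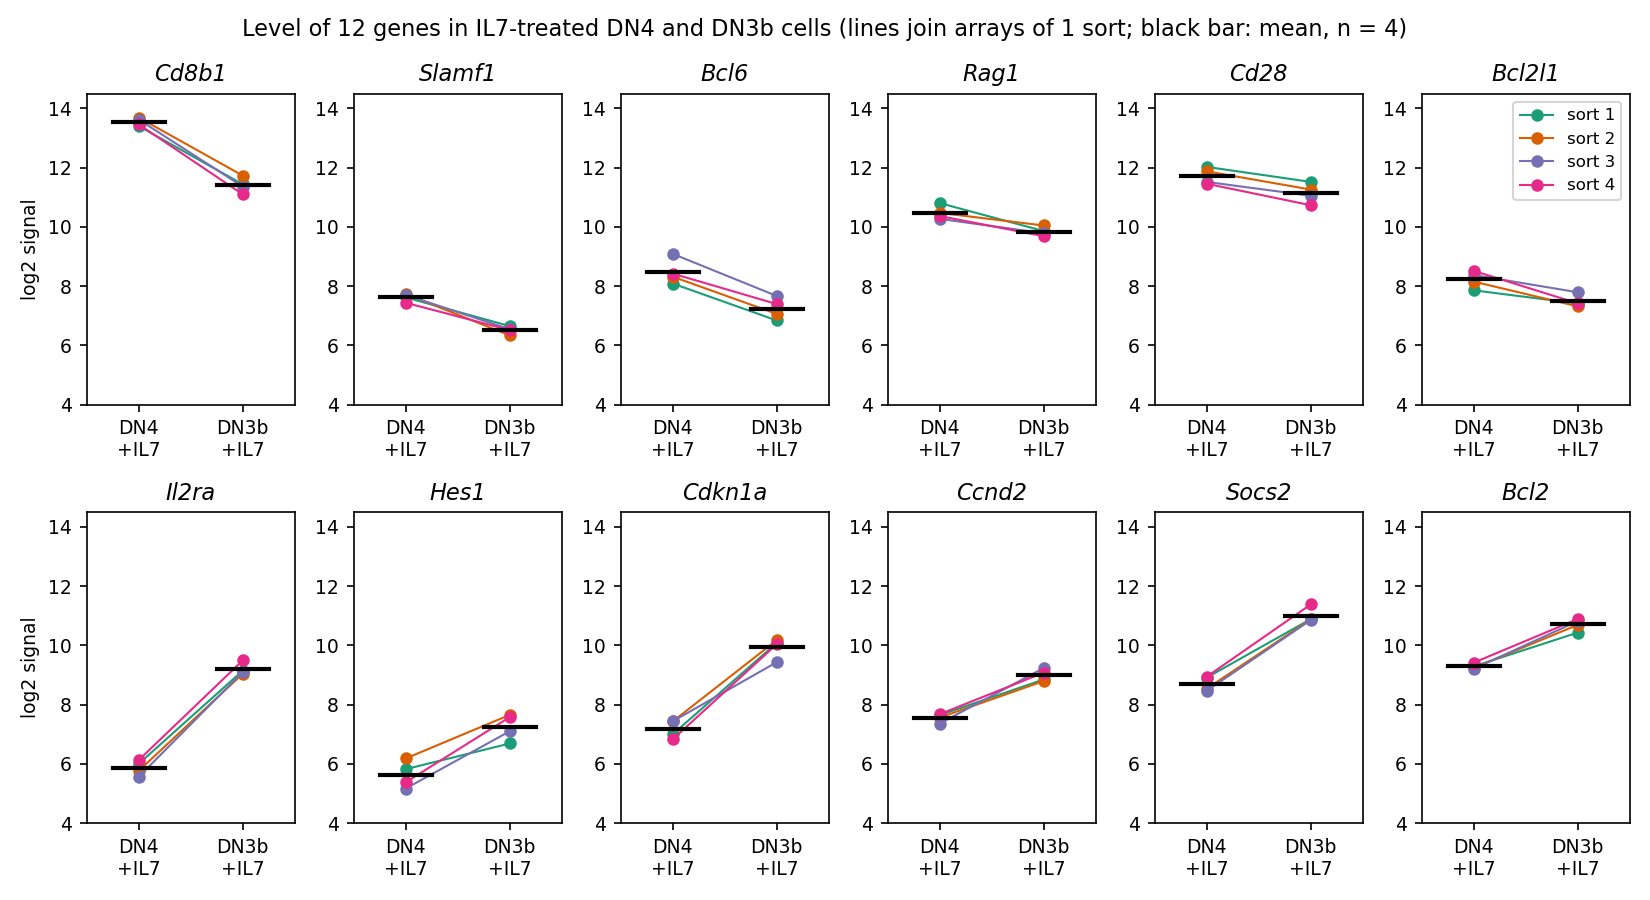
Log2 signal (vertical axes) of 12 genes in IL7-treated DN4 cells (left) and DN3b cells (right), with 1 line for each of the 4 sorts and a black bar for the mean. The 6 genes of the upper row were higher in DN4 cells and the 6 of the lower row lower, in each of the 4 sorts.

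Rag1, Rag2 and Xrcc6 were higher in DN4 cells, 3 of 11 measured genes of V(D)J recombination and end joining, while 0 were lower and 8 did not pass (median 0.19). Rag1 and Rag2 encode the recombinase that cuts receptor genes. Rag1 had log2 signals of 10.80, 10.47, 10.27 and 10.37 in DN4 cells, against 9.86, 10.05, 9.79 and 9.68 in DN3b cells (0.63 ± 0.13 SE, limma adjusted p = 0.020). Rag2 was at 7.32 to 7.69 in DN4 cells and 6.41 to 7.26 in DN3b cells (0.66 ± 0.11 SE, limma adjusted p = 0.0062). Neither gene's groups overlapped, but the Rag1 call was lost without sort 1, 2 or 4 and the Rag2 call without sort 2 or 4. Xrcc6, the Ku70 subunit of the end-joining machinery, was higher by 0.30 with overlapping groups, a call lost without any 1 of the sorts. Dntt, which adds untemplated nucleotides at joints, was at 0.24 (limma adjusted p = 0.20) and did not pass.

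Of 18 measured genes of the pre-TCR, CD3 complex and proximal signalling, 3 were higher in DN4 cells and 0 lower (median 0.08). They were Cd6 (1.36 ± 0.14 SE), a co-receptor that tunes T cell receptor signals, Cd2 (0.90), an adhesion receptor, and Zap70 (0.49), the kinase recruited to phosphorylated CD3 chains. Cd6 stood at 7.92, 8.38, 8.68 and 8.29 in DN4 cells and at 7.20, 6.78, 6.99 and 6.85 in DN3b cells, without overlap. Other probes gave 1.11 and 1.26 (limma adjusted p = 0.00061 and 0.00041), each detected on 24 of 24 arrays, and a dimmer one, detected on 6, gave 0.23 (limma adjusted p = 0.60). The Zap70 call was lost without sort 2, 3 or 4. Ptcra, the pre-T alpha chain gene, was at 5.14 to 5.59 in DN4 cells and 5.43 to 5.94 in DN3b cells, with overlap (-0.19, limma adjusted p = 0.58). Cd5, whose level follows receptor signal strength, was near background, detected on 1 of 4 arrays of either subset (0.12, limma adjusted p = 0.79).

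Of 14 measured early genes that antigen receptors induce, 4 were lower in DN4 cells and 1 higher, with a median of -0.24. Cd69, an activation marker that retains lymphocytes in tissue, had log2 signals of 6.29, 6.05, 4.70 and 5.46 in DN4 cells, against 7.57, 7.35, 6.82 and 7.64 in DN3b cells (-1.72 ± 0.21 SE, limma adjusted p = 0.00089). Ier3 (-1.12), the AP-1 subunit gene Jun (-0.69) and Dusp2 (-0.56), a phosphatase of MAP kinases, were lower as well. Zfp36, which encodes an RNA-binding protein that destabilises cytokine transcripts, was higher by 0.62. Egr1, a classical target of pre-TCR signalling, was at -0.51 and did not pass (limma adjusted p = 0.068). The calls of Ier3 and Jun were lost without some single sorts, sorts 1, 2 or 4 for Ier3 and 2, 3 or 4 for Jun.

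Notch receptors and targets were lower where they passed. Of 11 measured members, 4 were lower and 0 higher, and 10 had a negative difference (median -0.33). They were Il2ra, itself a gate gene, Hes1, Notch3 and Nrarp. Hes1, a repressor induced directly by Notch, had log2 signals of 5.82, 6.18, 5.17 and 5.38 in DN4 cells, against 6.69, 7.65, 7.10 and 7.58 in DN3b cells. The arrays did not overlap, and the level was 3.07-fold lower in DN4 cells (-1.62 ± 0.20 SE, limma adjusted p = 0.0010). Notch3, a Notch receptor that is also a target, was at 6.58 to 6.72 in DN4 cells and 7.19 to 7.57 in DN3b cells (-0.74 ± 0.11 SE). Nrarp, a feedback inhibitor of Notch, was at 7.50 to 7.78 in DN4 cells and 8.27 to 8.50 in DN3b cells (-0.69 ± 0.09 SE). Notch1 was at -0.25 (limma adjusted p = 0.39) and did not pass, nor did Dtx1, another target (limma adjusted p = 0.44), which was detected on 0 of 4 DN4 arrays and 1 of 4 DN3b arrays. Promoter windows of 300 bases from RefSeq (build GRCm38.p6, 250 bases before to 50 after the start of a gene) were at hand for 3 of the 4 lower genes. The core of the motif of RBPJ, the DNA-binding partner of Notch (TGGGAA, either strand), was in 0 of these 3 windows and in 25.6% of all promoters, which says only that these letters are not in these windows.

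Of 13 measured transcription factor genes of the T lineage, 1 was lower and 0 higher (7.69% called, near the 6.02% of all genes tested). It was Runx1, a core factor of T cell development, at -0.48 ± 0.08 SE, a call lost without sort 2 or 4. Bcl11b, which fixes T lineage commitment, was at 0.09, and Lef1, a partner of beta-catenin, at 0.44 (limma adjusted p = 0.66 and 0.095). Of 5 E proteins and Id factors, 0 passed at the probes used, with Id3 at 0.03. A second probe of the E protein gene Tcf12 gave 0.69 (limma adjusted p = 0.0063), against 0.24 (limma adjusted p = 0.30) at the brighter one. Among 8 progenitor and alternative-lineage genes, Scin, an actin-severing protein, was lower by 2.13 and the carboxypeptidase gene Cpa3 was lower, while Nrp1, a co-receptor for semaphorins, was higher by 0.68. Scin was 4.37-fold lower, at 6.93 to 7.82 in DN4 cells and 8.94 to 10.15 in DN3b cells. Cpa3 was detected at its brightest probe on 0 of 4 DN4 arrays and 3 of 4 DN3b arrays, and was at least 1.40-fold lower there. This bound sets the DN3b mean against the dimmest detected probe of each DN4 array, or the probe's own signal if brighter. The limma adjusted p of 0.027 tests the log2 difference of -1.11 and not the bound. P-values printed beside such bounds below likewise test the log2 difference. The calls of Cpa3 and Nrp1 were both lost without sort 1, 2 or 4, and dimmer Cpa3 probes gave -0.21 and -0.53 without passing.

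Among cell cycle genes, Cdkn1a, Ccnd2 and Cdk6 were lower in DN4 cells. They were 3 of 14 D cyclins, CDKs and CDK inhibitors, of which 0 were higher, 9 had a positive difference and the median was 0.10. Cdkn1a, the CDK inhibitor p21, had log2 signals of 6.83 to 7.44 in the 4 DN4 arrays, against 9.43 to 10.18 in the 4 DN3b arrays. It was 6.77-fold lower with no overlap (-2.76 ± 0.18 SE, limma adjusted p = 1.9e-05). Ccnd2, the cyclin that with CDK4 and CDK6 starts G1 progress, had 7.64, 7.56, 7.36 and 7.68 in DN4 cells, against 8.85, 8.79, 9.23 and 9.08 in DN3b cells (-1.43 ± 0.12 SE, limma adjusted p = 0.00011). Cdk6 was lower by 0.65, a call lost without sort 1 or 2. Ccnd3, the D cyclin that early thymocytes need to expand, was at 12.29 to 12.54 in DN4 cells and 12.36 to 12.49 in DN3b cells (-0.05 ± 0.10 SE, limma adjusted p = 0.86). Of 25 G1/S and DNA replication genes 24 had a positive difference with a median of 0.15, and of 23 G2/M genes 21 had one with a median of 0.09, but limma called 0 in either list.

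In the IL7 and STAT5 list, 10 of 18 measured members were lower in DN4 cells and 0 higher, with a median of -0.72. Both subsets had received IL7. Without IL7, 4 of the 18 were lower and 0 higher, with a median of -0.16. Those were Il2ra, Socs3 (-1.38), Map3k8 (-0.85) and the kinase gene Sgk1 (-0.51). The 10 lower with IL7 include Il2ra, a gate gene and so no finding. Members of this list were partly picked from earlier results on these samples, so the count is not independent evidence of a direction. Socs2, a feedback inhibitor of cytokine receptors, had log2 signals of 8.91, 8.54, 8.46 and 8.94 in DN4 cells, against 10.89, 10.88, 10.85 and 11.38 in DN3b cells. The differences of the 4 sorts lay close together, and Socs2 was 4.88-fold lower (-2.29 ± 0.09 SE, limma adjusted p = 2.3e-06). Cish, a related inhibitor, stood at 10.08, 9.93, 10.38 and 10.29 in DN4 cells and at 11.02, 11.03, 11.27 and 11.47 in DN3b cells (-1.03 ± 0.09 SE, limma adjusted p = 1.0e-04). Bcl2, the survival factor, was at 9.29, 9.24, 9.21 and 9.41 in DN4 cells and at 10.43, 10.69, 10.82 and 10.89 in DN3b cells. It was 2.67-fold lower (-1.42 ± 0.09 SE, limma adjusted p = 1.9e-05), and of its dimmer probes 2 passed at -1.24 and -1.33 while 3 gave -0.72, -0.78 and -0.54 without passing. Il18r1, a chain of the IL18 receptor, was detected on 1 of 4 DN4 arrays and 4 of 4 DN3b arrays, at 5.34, 4.63, 4.82 and 5.17 against 7.68, 8.37, 7.19 and 9.13 (-3.10 ± 0.25 SE). Bhlhe40 (-1.87), a transcription factor gene, Map3k8 (-1.78), a kinase gene, Osm (-1.12), a cytokine gene, Socs3 (-0.93) and Xbp1 (-0.51) completed the list beside Il2ra. The calls of Osm, Socs3 and Xbp1 were not checked over single sorts.

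Promoters of the called IL7 response genes are shown because these genes moved together and STAT5 binds a palindrome of the letters TTCNNNGAA. The search was added after the values were seen. RefSeq windows were at hand for 6 of the 10 genes, 8 windows in all, and 3 genes held the palindrome in 3 windows, against 8.30% of all 32851 promoters and 7.13% of those of the genes tested. The RBPJ core was in windows of 2 of the 6 genes, Il18r1 and Xbp1. By window that is 4 of 8, because each Il18r1 window held it, and some of those windows overlap. Of all promoters 25.6% held it. The palindrome was in 1 of the 3 Notch windows. Capitals mark the palindrome, which reads the same motif on both strands. The Cish window lies at chr9:107296409-107296708 on the plus strand, the Socs3 window at chr11:117969317-117969616 on the minus strand and the third of 3 Il18r1 windows at chr1:40465756-40466055 on the plus strand, all in GRCm38.p6. Both palindromes of Il18r1 overlap the letters of the RBPJ core given above. A match is a description of the sequence and not evidence of binding.
Cish: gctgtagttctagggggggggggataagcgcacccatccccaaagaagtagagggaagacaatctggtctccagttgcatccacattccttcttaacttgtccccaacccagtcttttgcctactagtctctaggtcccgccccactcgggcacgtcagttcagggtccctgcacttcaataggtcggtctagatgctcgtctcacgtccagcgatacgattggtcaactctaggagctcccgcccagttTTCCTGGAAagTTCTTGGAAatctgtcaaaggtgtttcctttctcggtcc
Socs3: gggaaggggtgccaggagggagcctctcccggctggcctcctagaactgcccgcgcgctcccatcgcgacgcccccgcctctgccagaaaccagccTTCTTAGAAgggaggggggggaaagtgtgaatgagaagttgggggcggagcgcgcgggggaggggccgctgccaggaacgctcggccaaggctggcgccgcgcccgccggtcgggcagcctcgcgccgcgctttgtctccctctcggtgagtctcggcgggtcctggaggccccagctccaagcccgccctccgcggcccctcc
Il18r1: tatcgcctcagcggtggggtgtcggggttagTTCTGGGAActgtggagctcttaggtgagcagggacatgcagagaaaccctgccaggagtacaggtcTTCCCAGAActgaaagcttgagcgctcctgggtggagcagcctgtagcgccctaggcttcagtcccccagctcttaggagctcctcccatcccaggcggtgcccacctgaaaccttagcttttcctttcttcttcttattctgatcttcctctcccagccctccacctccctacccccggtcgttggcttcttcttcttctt

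On the receptor side of the pathway, Il7r had log2 signals of 10.22, 10.05, 9.93 and 10.21 in DN4 cells, against 10.32, 9.99, 10.31 and 10.09 in DN3b cells. The groups overlapped (-0.07 ± 0.16 SE, limma adjusted p = 0.86), while without IL7 the difference was -0.63 (limma adjusted p = 0.0060) and the change between the comparisons did not pass (limma adjusted p = 0.52). Of 12 cytokine receptor and JAK-STAT components, 1 was higher, Il6st (0.63), the gp130 chain shared by the IL6 family, and 1 lower, Jak3 (-0.45). A second Jak3 probe gave 0.04, and the Jak3 call was lost without any 1 of the sorts. The Il6st call was lost without sort 4. Myc was at -0.01 (limma adjusted p = 0.98).

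Survival genes went both ways. Of 15 measured genes of the BCL2 family and caspases, 1 was higher and 5 were lower (median 0.03). Bcl2l1, which encodes the survival factor BCL-XL, was the gain, at 7.86, 8.15, 8.38 and 8.52 in DN4 cells and at 7.41, 7.32, 7.79 and 7.42 in DN3b cells (0.74 ± 0.16 SE, limma adjusted p = 0.024). Its call was lost without sort 2 or 4, and other probes gave 0.53 and 0.36 without passing. Beside Bcl2, the initiator caspase gene Casp8 (-0.52), the effector caspase gene Casp6 (-0.47), the survival gene Bcl2l2 (-0.51) and the pro-apoptotic gene Bcl2l11 (-0.36), which encodes BIM, were lower. Other probes of Bcl2l2 gave -0.56, which passed, and, at a dim one, 0.30, and its call was lost without sort 2, 3 or 4. The Casp6 call was lost without sort 2, and its other probe, detected on 24 of 24 arrays, gave -0.34 without passing. The Bcl2l11 call (limma adjusted p = 0.043) was not checked over single sorts. Mcl1 was at 0.18 (limma adjusted p = 0.58).

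**Figure D2:**
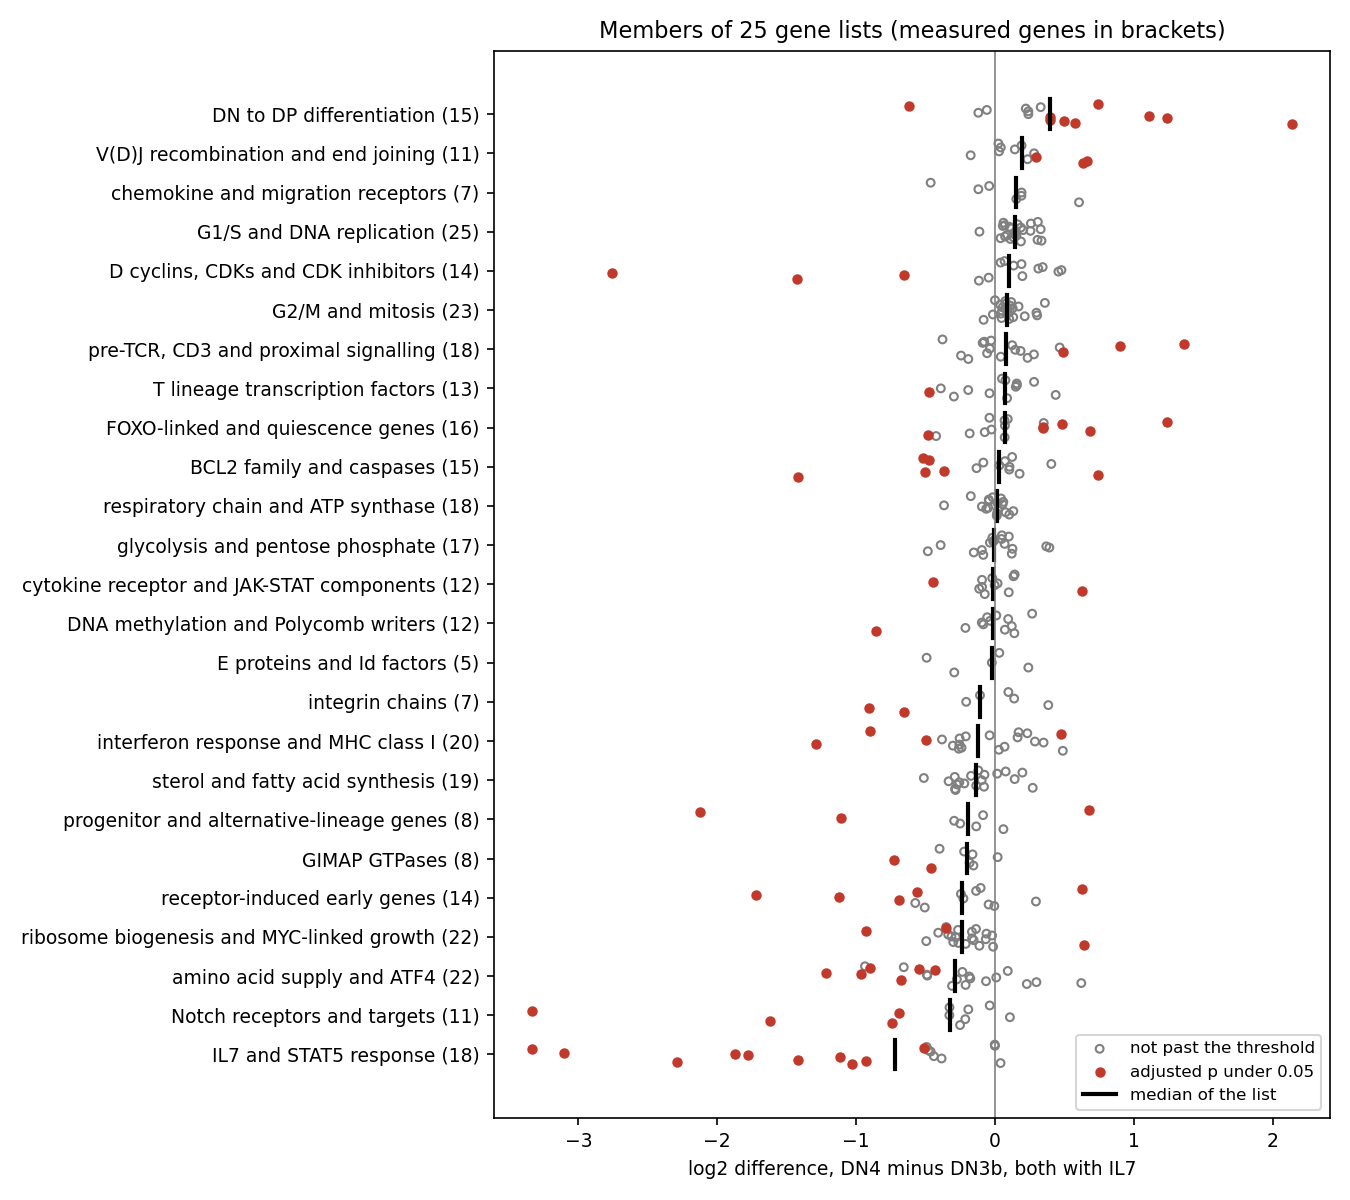
Log2 difference between DN4 and DN3b cells, both with IL7 (horizontal axis), for the measured members of 25 gene lists, ordered by the list median (black bar). Filled red points passed limma at an adjusted p under 0.05; the IL7 and STAT5 response had the lowest median (-0.72) and the DN to DP list the highest (0.40).

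Quiescence genes linked to FOXO factors gave 5 higher and 1 lower of 16, with a median of 0.07. Beside Bcl6 they were Ccng2 (0.69), an unconventional cyclin of resting cells, Sesn1 (0.48), a stress-induced inhibitor of mTORC1 signalling, Btg1 (0.35), an anti-proliferative gene, and Pik3ip1 (0.35), an inhibitor of PI3 kinase, and Klf3 (-0.49), a transcriptional repressor gene, was lower. The calls of Sesn1, Btg1, Klf3 and Ccng2 were each lost without at least 2 of the 4 single sorts. That of Pik3ip1 (limma adjusted p = 0.049) was not checked over single sorts. Other probes of Btg1 (0.37 and 0.17) and Sesn1 (0.37) did not pass. Growth genes leaned the other way. Of 22 genes of ribosome biogenesis and MYC-linked growth 21 had a negative difference (median -0.24), with 2 lower and 1 higher. The called share was 13.6%, against 6.02% of all genes tested, where 4451 of 8820 had a negative difference. Srm, the spermidine synthase gene, was at 7.75, 7.59, 7.69 and 8.16 in DN4 cells and at 8.60, 8.42, 8.66 and 9.23 in DN3b cells (-0.93 ± 0.14 SE, limma adjusted p = 0.0029), with -0.71 at another probe, which passed, and -0.46 at one that did not. Gnl3, which encodes a nucleolar protein, was at -0.36, a call lost without any 1 of the sorts, and Mxd4, a MAX partner that opposes MYC, was higher by 0.64, a call lost without sort 2 or 4.

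Amino acid supply and ATF4 target genes were lower where they passed. Of 22 measured, 6 were lower and 0 higher, and the median was -0.29. Trib3, a pseudokinase induced by amino acid stress, had log2 signals of 6.62, 6.83, 6.77 and 6.88 in DN4 cells, against 7.86, 8.20, 7.83 and 8.07 in DN3b cells, 2.32-fold lower and without overlap (-1.22 ± 0.09 SE, limma adjusted p = 3.8e-05). Chac1 (-0.96), which degrades glutathione, the transcription factor genes Cebpb (-0.90), Atf5 (-0.55) and Atf4 (-0.43), and the glycine transporter gene Slc6a9 (-0.68) were the others. The Atf5 call was lost without any 1 of the sorts, and the Atf4 call (limma adjusted p = 0.028) was not checked over single sorts. Other metabolism stayed under the threshold: limma called 0 of 17 genes of glycolysis and the pentose phosphate pathway, 0 of 19 of sterol and fatty acid synthesis and 0 of 18 of the respiratory chain, with medians of -0.00, -0.13 and 0.01. Dnmt3b, a de novo DNA methyltransferase gene, was the 1 call among 12 DNA methylation and Polycomb writers, lower by 0.86 ± 0.08 SE, with -0.40 at a dimmer probe. That is 8.33% of the list, near the 6.02% of all genes tested.

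Among surface and immune genes, the fibronectin receptor chain Itga5 (-0.65) and the laminin receptor chain Itga6 (-0.90) were the 2 lower of 7 integrin chains. A dimmer Itga5 probe gave -0.08 (limma adjusted p = 0.83). The Itga6 call was lost without sort 1, 3 or 4. Of 7 chemokine and migration receptors 0 passed. Interferon response and MHC class I genes split, with 3 lower and 1 higher of 20. Oasl2 (-1.29 ± 0.12 SE), an interferon-induced gene, Nlrc5 (-0.90), the transactivator of MHC class I genes, and Ifi35 (-0.50) were lower. Tap2 (0.48), a subunit of the peptide transporter for MHC class I, was higher. A dim second Oasl2 probe gave -0.04. The calls of Ifi35 and Tap2 were lost without sort 3 or 4. Of 8 GIMAP GTPases, which are linked to lymphocyte survival, Gimap5 (-0.73) and Gimap1 (-0.46) were lower, and both calls were lost without sort 2 or 4. Other probes gave -0.23 for Gimap5 and -0.36 for Gimap1 without passing.

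The genes with the largest differences over the whole array included many outside these lists. Among the 15 largest gains, Tg, the thyroglobulin gene, was at 7.22, 7.67, 8.53 and 8.30 in DN4 cells and at 5.96, 6.26, 7.05 and 6.37 in DN3b cells (1.52 ± 0.19 SE, limma adjusted p = 0.0012). Colq, the collagen tail of acetylcholinesterase (1.34), the beta-tubulin gene Tubb2b (1.34), the synaptotagmin gene Syt13 (1.27) and Rmnd5a, a subunit of a ubiquitin ligase complex (1.25), had no overlap between the subsets. Tubb2b was among the brightest of them, at 13.94 to 14.36 in DN4 cells and 12.57 to 13.04 in DN3b cells. Gramd3 was detected on 4 of 4 DN4 arrays and 0 of 4 DN3b arrays and was at least 1.94-fold higher (limma adjusted p = 0.00024), by the bound described for Cpa3. Glcci1 (1.28), a glucocorticoid-induced gene whose call was lost without sort 2, 3 or 4, Igsf3 (1.17), the Schlafen gene Slfn1 (1.17) and the LIM-domain gene Pdlim4 (1.16) followed.

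Among the 15 largest losses were Nfe2 (-2.64 ± 0.29 SE), a transcription factor gene of megakaryocytes and red cell precursors, Nkg7 (-2.46), a cytotoxic granule gene, and Akr1c12 (-2.40), an aldo-keto reductase gene. Nfe2 had log2 signals of 5.90, 5.96, 6.01 and 5.14 in DN4 cells, against 7.92, 8.94, 7.73 and 8.99 in DN3b cells, so that the highest DN4 array was below the lowest DN3b array by over 1 unit. The mucin gene Muc13 was detected at its brightest probe on 0 of 4 DN4 arrays and 4 of 4 DN3b arrays and was at least 4.28-fold lower there (limma adjusted p = 0.00051), with -0.50 at another probe (limma adjusted p = 0.40). Rab38, a Rab GTPase gene, was at least 3.59-fold lower (limma adjusted p = 1.9e-05), detected on 0 of 4 DN4 arrays and 4 of 4 DN3b arrays, while a dimmer probe gave -0.55. Rab44 (-2.10, with -0.17 at a dim probe), Khdc1c (-2.03), whose probe may also read near-identical family members, Ifitm2 (-2.00), an interferon-induced membrane protein gene, and Dyrk4 (-1.81), a kinase gene, were the others beside genes described above.

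Set beside the DN3a stage with IL7, some of these genes ran in 1 direction over the 3 stages and others did not. Both steps share the DN3b arrays, so the mean levels are given as a description, with no test. Cd8b1 had mean log2 signals of 8.54 in DN3a, 11.40 in DN3b and 13.54 in DN4 cells, and Slamf1 of 5.08, 6.51 and 7.62. Hes1 ran the other way, at 10.33 in DN3a, 7.26 in DN3b and 5.64 in DN4 cells, as did Scin at 12.99, 9.65 and 7.53, and Cdkn1a at 11.86, 9.93 and 7.17. Other means were lowest or highest in DN3b cells. Bcl6 was at 9.39 in DN3a, 7.24 in DN3b and 8.48 in DN4 cells, Rag1 at 10.49, 9.84 and 10.48, and Socs2 at 10.30, 11.00 and 8.71. Il2ra had means of 9.88 in DN3a, 9.20 in DN3b and 5.87 in DN4 cells.

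**Figure D3:**
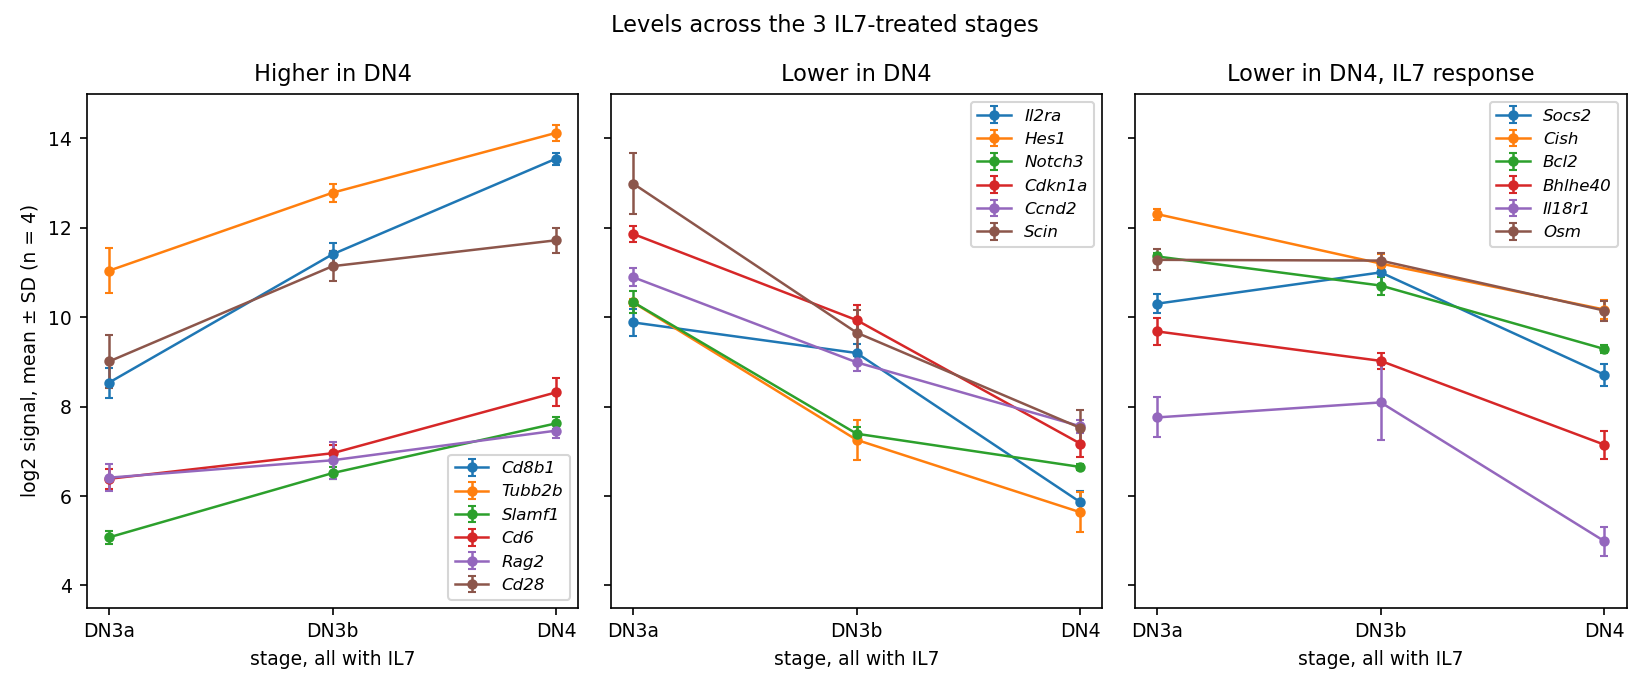
Mean log2 signal ± SD (vertical axis, n = 4 arrays) of 18 genes in DN3a, DN3b and DN4 cells, all cultured with IL7 (horizontal axis). The mean of Cd8b1 was lowest in DN3a and highest in DN4 cells, that of Hes1 the reverse, and that of Socs2 was highest in DN3b cells at 11.00.

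The design also asks whether the DN4 to DN3b difference depends on IL7. Without IL7, 356 genes passed (4.04%), 129 higher in DN4 cells (1.46%) and 227 lower (2.57%). Of the 531 genes called with IL7, 491 had the same sign without it and 40 the opposite sign. Both comparisons called 209 genes, which are 39.4% of the calls with IL7 and 58.7% of those without, and 208 of them agreed in direction. Cd8b1 was higher by 2.14 with IL7 and by 1.79 without, Slamf1 by 1.11 and 1.68, Hes1 was at -1.62 with IL7 and -1.13 without, Cdkn1a at -2.76 and -2.06, and Ccnd2 at -1.43 and -1.26. None of these 5 passed the test of the change between the comparisons (limma adjusted p = 0.39, 0.21, 0.22, 0.37 and 0.86). Other probes of Cdkn1a did pass it, with changes of -1.09 and -1.45 (limma adjusted p = 0.031 and 0.0038). For the DN to DP list, 4 members were higher and 1 lower without IL7, with a median of 0.18. For Notch receptors and targets, 5 were lower and 0 higher.

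The direct test of that change called 27 genes (0.306%), 6 with a higher DN4 minus DN3b value when IL7 was present (0.068%) and 21 with a lower one (0.238%). At an unadjusted p under 0.05, 833 genes passed (9.44%). 24 of the 27 also passed the comparison with IL7. Of 322 genes called with IL7 but not without it, 21 passed this direct test. Of the 21 lower ones, 11 were detected on 0 arrays of either subset without IL7. Il18r1 had the widest change (-3.18 ± 0.36 SE, limma adjusted p = 0.0018) and was detected on 0 of 4 arrays of both subsets without IL7, at 4.39 to 4.64 in DN4 cells and 4.39 to 4.45 in DN3b cells. Socs2 (-2.07 ± 0.24 SE, limma adjusted p = 0.0019) and Bhlhe40 (-1.63 ± 0.16 SE, limma adjusted p = 0.00063) were likewise not detected without IL7. Rab38 (-2.09), Nav1 (-1.81), a neuron navigator gene, and Dyrk4 (-1.71) followed the same course, although another probe of Rab38 gave a change of -0.30 without passing. Further Nav1 probes gave -2.34 (limma adjusted p = 6.9e-06) and 0.33, which did not pass. Ifitm3, an antiviral membrane protein gene, was detected on all arrays of both cultures. With IL7 it was at 7.24 to 7.77 in DN4 cells and 8.87 to 9.85 in DN3b cells. Without IL7, Ifitm3 was at 6.66 to 7.72 in DN4 cells and 6.93 to 7.15 in DN3b cells, a change of -1.79 ± 0.21 SE (limma adjusted p = 0.0019). In the IL7 and STAT5 list 3 members passed, Il18r1, Socs2 and Bhlhe40, whereas Cish was at -0.98 (limma adjusted p = 0.087), Bcl2 at -0.78 (0.15) and Socs3, with the opposite sign, at 0.45 (0.27).

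Bcl6 led the 6 genes with a higher value under IL7 (1.05 ± 0.14 SE, limma adjusted p = 0.0037). With IL7 its DN4 arrays lay above its DN3b arrays, as given above. Without IL7 it stood at 10.12, 9.94, 10.47 and 10.15 in DN4 cells and at 9.76, 9.85, 10.16 and 10.18 in DN3b cells, higher in both subsets than with IL7 and with overlap. Nrp1 (0.74), Actn2, an actin cross-linker gene (0.91), the homeobox gene Tgif1 (0.71), Prag1 (0.98) and Lypd6b (1.01) were the others. Actn2 was higher by 0.44 with IL7 and lower by 0.46 without it, so the sign differed. Further probes gave changes of 0.75 for Nrp1 and of 0.33 and 0.28 for Tgif1 that did not pass. Of these 6, Tgif1, Prag1 and Lypd6b did not pass the comparison with IL7 itself. The calls of the change for Actn2, Nrp1, Tgif1, Prag1 and Lypd6b were lost without any 1 of the sorts, and that of Bcl6 without sort 2 or 4. Without sort 2, Il18r1, Nav1, Ifitm3 and Dyrk4 lost theirs too, and the total of 27 fell to 5.

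**Figure D4:**
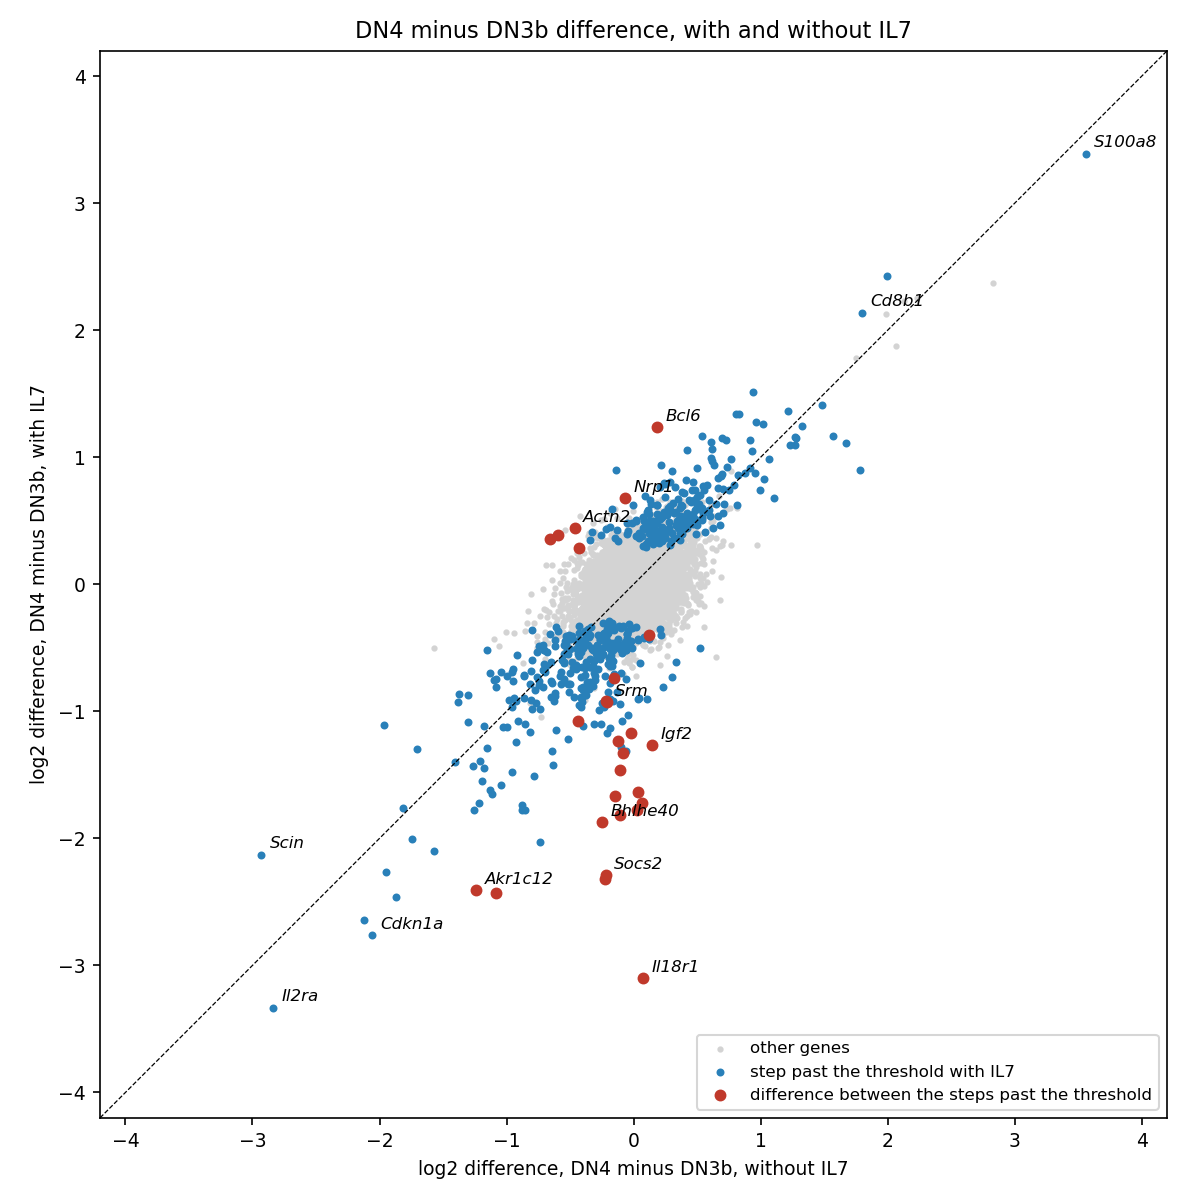
Log2 difference between DN4 and DN3b cells with IL7 (vertical axis) against the same difference without IL7 (horizontal axis), 1 point for each of 8820 genes, with a dashed line of equality. The 27 red genes passed the test of the change, and 21 of them lie below the line, led by Il18r1 at -3.10 with IL7 and 0.08 without.

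Transcripts of other cells were uneven between sorts. All 9 measured granulocyte and myeloid markers had a positive difference, with a median of 2.13, and 2 passed, S100a8 and Fcer1g. S100a8, a subunit of the neutrophil protein calprotectin, had log2 signals of 5.24, 12.23, 12.12 and 7.57 in DN4 cells of sorts 1 to 4, against 4.83, 6.42, 7.72 and 4.63 in DN3b cells. The DN4 arrays of sorts 2 and 3 stood far above the rest, and the groups overlapped (3.39 ± 0.70 SE, limma adjusted p = 0.019). Lyz1, whose probe may also read the near-identical Lyz2, had 5.31, 9.27, 9.76 and 6.73 in DN4 cells, against 4.95, 5.52, 5.62 and 5.29 in DN3b cells (2.43 ± 0.61 SE, limma adjusted p = 0.046). The S100a8 and Lyz1 calls were lost without sort 2, 3 or 4, and that of Fcer1g (0.55) without sort 1, 2 or 4. The summed linear signal of the 9 markers was 254.3, 8111, 7856 and 443.4 in DN4 cells and 227.2, 328.4, 473.9 and 244.9 in DN3b cells, where Ngp, Camp, Ltf and Lcn2 were detected on 0 arrays. The part of these cells in the other differences was not tested, but values without sorts 2 and 3 could be had. On the remaining pair of sorts 41 genes passed, 7 higher and 34 lower. Cd8b1, Il2ra, Cdkn1a, Ccnd2, Socs2, Bcl2, Scin and Trib3 were among them, while Hes1, Notch3, Nrarp, Slamf1, Bcl6, Cd6, Rag1 and Rag2 did not pass there. The DN to DP list then had 1 higher member in place of 8, and Notch receptors and targets 1 lower (the gate gene Il2ra) in place of 4. The IL7 and STAT5 response had 5 lower in place of 10, with Il2ra in both counts. The V(D)J, pre-TCR and early gene lists had 0 calls. The medians of the DN to DP, Notch and IL7 and STAT5 lists were 0.44, -0.33 and -0.73 on these sorts, and that of the granulocyte markers was 0.14.

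**Figure D5:**
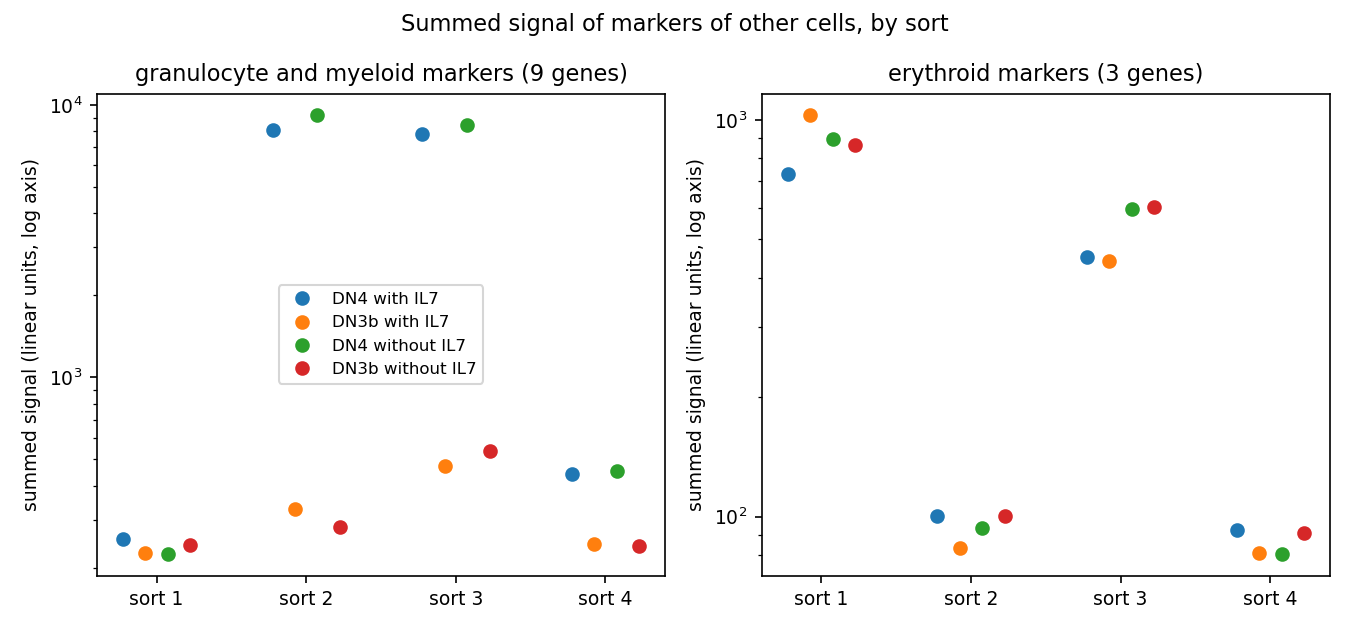
Summed linear signal (vertical log axes) of 9 granulocyte and myeloid markers and 3 erythroid markers by sort (horizontal axes) for DN4 and DN3b cells with and without IL7. The granulocyte sum was 8111 and 7856 in IL7-treated DN4 cells of sorts 2 and 3, against 328.4 and 473.9 in DN3b cells of the same sorts.

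Erythroid markers followed the sort and not the subset, with sums of 730.5, 100.3, 451.5 and 92.26 in DN4 cells and 1026, 83.32, 440.7 and 81.13 in DN3b cells, and 0 of 3 passed. Of 4 NK and cytotoxic markers 1 was lower, Nkg7 (-2.46), and the summed signals of the 4 were 544.8 to 615.8 in DN4 cells and 796.7 to 1078 in DN3b cells. Gzma (-0.16), Prf1 (-0.0001) and Il2rb (0.10) did not pass. Gzma was near background, detected on 0 of 4 DN4 arrays and 1 of 4 DN3b arrays. Of 4 gamma-delta T cell markers 1 was lower, the scavenger receptor gene Cd163l1 (-0.67, a call lost without sort 2, 3 or 4), with sums of 397.2 to 484.1 in DN4 cells and 536.3 to 790.0 in DN3b cells. Of 8 mature T cell markers 2 were higher, Cd6 and the co-stimulatory receptor gene Icos (0.56, lost without sort 2, 3 or 4), while their summed signals overlapped at 9144 to 13670 in DN4 cells and 9602 to 13950 in DN3b cells. Among 3 B cell, 5 dendritic cell, 3 early thymic progenitor and 2 thymic stroma markers, limma called 0, with list medians from -0.25 to -0.03. The part of these markers in the results was not tested.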

How the data were processed

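Per the file headers, the deposited non-normalized table gives a linear signal intensity and a detection p-value for each of 25697 probes on each array. A second deposited table holds the authors' log2 values, which per the labels' design text were background-subtracted and quantile-normalized. Their largest gap to quantile-normalized, uncorrected log2 intensities was 0.0486, and each of 24 columns matched its own array best. GenomeStudio 2011.1 is named in the submitters' processing notes and R Bioconductor 2.13.0 in the design text.

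Intensities were corrected and quantile-normalized with neqc in limma 3.58.1 (R 4.3.3), with an offset of 16 that compresses log2 changes of dim probes. Probes with a detection p under 0.05 on at least 4 arrays were kept (12939, of which 12158 were named). The platform annotation gave 1 symbol for 23978 probes (23962 updated by gene identifier), several for 0 and none for 1719. The brightest probe stood for a gene, and 2348 genes had more than 1. Among further probes of named genes in the comparison with IL7, 58 kept the call, 26 differed in it and 8 had the opposite sign. Probes of Jak3, Bcl2l2, Nav1 and Il7r were among those 8. For the change with IL7, 63 kept the call, 10 differed in it and 19 had the opposite sign. limma was fitted over the 12 IL7-treated arrays with the sort as block, likewise over the 12 untreated arrays, and over 24 arrays with culture pairs as blocks for the change between them. P-values were Benjamini-Hochberg adjusted over 8820 genes. Standard errors (SE) are moderated ones from limma. The labels name the sort. Deviations of DN4 and DN3b arrays of 1 sort correlated at 0.141 to 0.459, against a median of -0.0807 between sorts, and 7 of 8 arrays correlated best with their own sort. The steps were tested on simulated data. The number of arrays limits the precision.

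Named were the 15 largest calls on each side with the same direction in 4 sorts, up to 5 members of each list, the 6 largest changes with IL7 on each side and a set of genes given whatever their values, including Il7r, Ptcra, Myc and Rag1. Another gene of that set is not reported here. The comparison and the gene lists were chosen with earlier results of these data known.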

Additional observations from a re-analysis of the deposited data

Results flagged for a closer look

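In 7 of 189 named genes 1 sort stood apart from the other sorts in its DN4 minus DN3b difference with IL7. Chance alone sets apart about 1 in 20 groups of 4. Cd53 was at -0.35 in sort 1, against -0.73 to -0.69 in the others, and Itga5 at -0.31 in sort 2, against -0.80 to -0.73, both still past the threshold. Tcf4 was at -0.50 in sort 3 (others -0.24 to -0.20), Gpr183 at 0.65 in sort 3 (others -0.01 to 0.07), Cd74 at 0.75 in sort 3 (others 0.13 to 0.19), Ptcra at -0.80 in sort 3 (others -0.04 to 0.07) and Mcl1 at 0.81 in sort 1 (others -0.06 to 0.02), none of them past the threshold.

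The DN4 minus DN3b difference changed with IL7, by the direct test in limma, for 27 genes, and the 6 largest changes on each side are listed here. Bhlhe40 (-1.63), Muc13 (-1.35), Akr1c12 (-1.17) and Srm (-0.72), named above, passed as well, though other probes of Muc13 and Srm did not. The value with IL7 exceeded that without by 1.05 for Bcl6, 1.01 for Lypd6b, 0.98 for Prag1, 0.91 for Actn2, 0.74 for Nrp1 and 0.71 for Tgif1. It was lower for Il18r1 (-3.18), Rab38 (-2.09), Socs2 (-2.07), Nav1 (-1.81), Ifitm3 (-1.79) and Dyrk4 (-1.71). Among these listed genes the limma adjusted p ranged from 0.000292 for Rab38 to 0.0393 for Prag1.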

How the results depend on the processing

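0 of the named genes and counts reversed under 17 settings of the comparison with IL7 and 15 of the change with IL7. Calls were lost without a reversal, however. The calls of Gnl3 and Jak3 were lost in 11 of the 17 settings, and the changes of Nrp1, Tgif1 and Prag1 in 9 of the 15. Against 531 genes called with IL7 (214 higher and 317 lower), the authors' values gave 801 (342 higher), uncorrected intensities 339 higher, median scaling 327 (121 and 206), 8 arrays alone 344 (130 higher) and 24 arrays with the sort as block 850 (358 and 492). Against 356 genes without IL7, uncorrected intensities, the authors' values and 24 arrays gave 562, 566 and 541, and against 27 changes the first 2 gave 99 and 105. The pairing of sorts mattered: with no replicate block the counts were 277 (93 and 184) with IL7, 164 without IL7 and 16 changes. Leaving out 1 sort gave 211 to 390 with IL7 (75 to 164 higher, 136 to 226 lower), 112 to 227 without IL7 and 5 to 18 changes. A paired test without moderation called 0 with IL7 (0 higher, 0 lower), where 1371 genes had an unadjusted p under 0.05 and limma had 1657, and 1 without. Settings added after seeing the data left out pairs of sorts. Without sorts 2 and 3 the counts were 41 (7 and 34, a higher share of 17.1% in place of 40.3%), 34 without IL7 and 0 changes (589 at an unadjusted p under 0.05). Without sorts 1 and 3 they were 161 (50 and 111), 76 and 0 changes (937 unadjusted). The beadchip as a block was not run, as the files name none. Probes near background limit what can be measured: Il18r1, Rab38, Socs2 and Bhlhe40 were not detected without IL7, so their changes rest on the arrays with IL7.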
